A study of Mus musculus with 7 samples.

Results

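VH11 and VH12 are a pair of immunoglobulin heavy chain variable (V) segments, each taken here as the joins whose V end lies within 100 bp of a fixed position in the mouse Igh locus. The positions are 115623228 for VH11 and 115999120 for VH12 on chromosome 12 (mm9), and only joins in deletional orientation to the bait were counted. The rule gave 767 VH11 junctions and 717 VH12 junctions, together 1484 of 95203 V junctions, and 2 of the 158 V segments found in the data. VH11 lies 786.9 kb and VH12 1162.7 kb upstream of VH81X, the V segment beside the altered element, and the pair lies 375.9 kb apart. A junction is 1 sequenced read that joins the JH4 coding end (the bait) to another piece of DNA (the prey). The names VH11 and VH12 stand for these positions, and no gene symbol was assigned to either.

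The libraries were made by high-throughput genome-wide translocation sequencing (HTGTS) from DNA of bone marrow pro-B cells of mice aged 4 to 6 weeks. Sorting took B220+CD43highIgM- cells, and both groups have the 129SVE background. The groups were VH81X-CBEscr/scr (n = 4 libraries), whose CTCF-binding element (CBE) beside VH81X is named as scrambled on both alleles, and WT (n = 3 libraries). The design asks how often each V segment is joined in each genotype. The libraries hold DNA joins and no expression values, so the sort markers could not be checked in them. Joins on an expressed allele and on the other allele of the same cell cannot be told apart.

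A V segment is joined to an already formed DJ join by the RAG recombinase, which cuts at the recombination signal sequence (RSS), a heptamer and a nonamer held apart by a spacer, beside the V coding end. VH11 and VH12 are known from B-1 cells, the innate-like B cells of the body cavities, where their heavy chains make antibodies to phosphatidylcholine. A join gives a surface heavy chain only if V and JH share a reading frame and the chain pairs with the surrogate light chain. Heavy chains of VH11, VH12 and VH81X have been described as pairing poorly or only with certain CDR3s, the antigen-contacting loop that the V, D and JH ends form together. These are statements from the field and not results of these libraries.

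The ends of both V exons are shown because they identify the segments and give the reading frame. Each is the majority base of the reads over the last 290 bases before the coding end, on the coding strand (minus strand of mm9), and capitals mark the stretch from the conserved Cys codon to the coding end. VH11 is at chr12:115623228-115623517 and VH12 at chr12:115999120-115999409.
VH11: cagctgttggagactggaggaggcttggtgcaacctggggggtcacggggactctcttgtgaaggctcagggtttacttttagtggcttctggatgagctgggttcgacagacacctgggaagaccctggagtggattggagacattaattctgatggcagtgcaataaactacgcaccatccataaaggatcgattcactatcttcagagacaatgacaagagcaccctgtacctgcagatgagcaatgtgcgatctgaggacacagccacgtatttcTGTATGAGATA
VH12: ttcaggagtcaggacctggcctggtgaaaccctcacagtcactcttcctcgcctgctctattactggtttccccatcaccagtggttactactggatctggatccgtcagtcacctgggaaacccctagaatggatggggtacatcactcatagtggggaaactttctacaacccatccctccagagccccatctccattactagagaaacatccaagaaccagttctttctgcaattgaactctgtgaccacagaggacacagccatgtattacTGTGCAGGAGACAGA

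At least 109 VH11 reads and 97 VH12 reads covered every base, and the majority base differed from the files' reference at 0 of 290 positions in each. Both were open: codons counted back from the Cys codon gave 0 stop codons in 94 codons of VH11 and 0 in 92 codons of VH12. VH11 leaves 8 bases and VH12 leaves 12 bases between the Cys codon and the coding end. VH11 has a near copy among the V segments, V_115560450 (named by its most frequent junction position), which lies 62.8 kb closer to VH81X and was 98.0% identical over the last 150 bases. All 767 VH11 junctions were nearer in sequence to the majority bases of VH11 than to those of that copy. VH12 had no such copy, since the most similar other segment was 74.7% identical, and all 717 VH12 junctions were nearer to VH12. The lines had been placed by alignment, and the majority bases came from the same reads. These counts are therefore no separate check that the lines were placed at the right copy.

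The RSS side of the segments is shown because it is the part that RAG and, next to it, CTCF can bind. Reads in the other orientation run from the coding end into the RSS, and 4 such lines at VH11 and 14 at VH12 gave the majority bases below. The 85 bases start at the heptamer, and capitals mark the heptamer, the nonamer after a 23-base spacer, and a match to CCANNAGNNGG, a reduced form of the CTCF motif. The windows are chr12:115623143-115623227 for VH11, chr12:115999035-115999119 for VH12, chr12:115560364-115560448 for the near copy and chr12:114836292-114836376 for VH81X, which is given from 2 lines of VH81X-CBEscr/scr and from 9 lines of WT.
VH11: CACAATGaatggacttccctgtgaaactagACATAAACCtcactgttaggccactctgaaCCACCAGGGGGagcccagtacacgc
VH12: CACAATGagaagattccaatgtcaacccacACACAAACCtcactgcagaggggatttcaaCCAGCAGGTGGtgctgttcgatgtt
Near copy of VH11: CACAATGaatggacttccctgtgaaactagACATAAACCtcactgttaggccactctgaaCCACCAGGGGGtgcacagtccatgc
VH81X in VH81X-CBEscr/scr: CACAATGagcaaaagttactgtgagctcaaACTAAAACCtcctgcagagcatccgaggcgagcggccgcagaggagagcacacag
VH81X in WT: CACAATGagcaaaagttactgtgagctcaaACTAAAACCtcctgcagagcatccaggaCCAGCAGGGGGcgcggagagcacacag

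VH11, VH12, the near copy and VH81X share the heptamer CACAATG. Of 61 V segments whose heptamer could be read, 8 had it, while 52 had CACAGTG and 1 had CACTGTG. The motif began at base 61 of the window in VH11, VH12 and the near copy, and at base 59 in VH81X of WT. In VH81X-CBEscr/scr both lines lacked it, with other letters in its place. Among the 56 V segments with a complete 100-base window, 28 (50%) held the motif on the coding strand, all within 1315.5 kb upstream of VH81X, and 0 held it on the other strand. In the first 100 bases of RefSeq promoters (GRCm38.p6), 331 of 32851 (1.01%) held it on the given strand and a further 284 only on the other strand. A match of letters is a description and does not show that CTCF binds there.

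Upstream of the exon, both segments carried an octamer, the promoter element of immunoglobulin genes that POU factors bind. It is in capitals in the 28 bases printed here, read from 4 lines at chr12:115623782-115623809 (VH11) and from 3 lines at chr12:115999648-115999675 (VH12).
VH11: gcaggaagacATGCAAATagggcctctt
VH12: tgttcctcacATGCAAATgcatggtcta

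The libraries held 31986 to 46915 junctions each, of which 10961 to 16874 were V junctions. For a segment with 0 lines the upper limit would be 0.0178% to 0.0274% by library (3 counts, counting error only). VH81X, at the altered element, had 46, 8, 14 and 26 junctions in VH81X-CBEscr/scr replicates 1 to 4, against 1511, 1006 and 1508 in WT replicates 1 to 3. The groups were thus apart in every library, but this count is itself a readout and no separate check of the genotype labels. Repeated reads were frequent, and WT replicate 2 stood apart with 3694 distinct V joins, against 5902 to 11648 in the other libraries. A distinct join is counted once per library for each combination of V end, JH4 end and bases between. Read names, not the labels, put the 7 libraries in 4 sequencing runs. These held VH81X-CBEscr/scr replicates 1 and 2, VH81X-CBEscr/scr replicates 3 and 4, WT replicate 1, and WT replicates 2 and 3. As 0 runs held both genotypes, run and genotype cannot be told apart in any comparison of VH81X-CBEscr/scr with WT. Within VH81X-CBEscr/scr, replicates 1 and 2 both had lower VH11 and VH12 shares of V junctions than replicates 3 and 4. The tests took no account of run.

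Neither VH11 nor VH12 changed its share of V joins past the test in VH81X-CBEscr/scr. VH11 had 101, 90, 128 and 142 junctions in VH81X-CBEscr/scr, or 0.838%, 0.771%, 0.982% and 0.903% of V junctions. In WT it had 116, 73 and 117 junctions, or 0.687%, 0.666% and 0.786%. The 3 highest mutant libraries lay above every WT library and the lowest lay just below the highest WT library, so the groups overlapped by 1 library. The means were 0.874% ± 0.0899 (SD, n = 4) in VH81X-CBEscr/scr and 0.713% ± 0.0638 (SD, n = 3) in WT. The log2 difference was 0.29 (SE 0.221, 95% interval -0.14 to 0.72, limma-voom adjusted p 0.738), which leaves room for anything between a 0.904-fold and a 1.65-fold change.

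VH81X joins are part of the denominator and were far fewer in VH81X-CBEscr/scr, so the share was also taken of V junctions without VH81X. VH11 then took 0.875% ± 0.0899 (SD, n = 4) in VH81X-CBEscr/scr and 0.788% ± 0.0759 (SD, n = 3) in WT. The log2 difference was 0.15 (SE 0.219, 95% interval -0.28 to 0.58, limma-voom adjusted p 0.733). The two-sided exact permutation p over the 35 splits was 0.0857 for all V junctions and 0.2 without VH81X, where 0.0286 is the smallest p possible. Among distinct joins VH11 took 0.845% ± 0.0742 (SD, n = 4) in VH81X-CBEscr/scr and 0.697% ± 0.129 (SD, n = 3) in WT.

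VH12 had 81, 57, 107 and 121 junctions in VH81X-CBEscr/scr, or 0.672%, 0.488%, 0.821% and 0.770% of V junctions. In WT it had 117, 141 and 93 junctions, or 0.693%, 1.29% and 0.625%. WT replicate 2 was the highest of the 7 libraries, and the other WT libraries lay inside the mutant range. The means were 0.688% ± 0.146 (SD, n = 4) in VH81X-CBEscr/scr and 0.868% ± 0.364 (SD, n = 3) in WT, with a log2 difference of -0.23 (SE 0.223, 95% interval -0.67 to 0.21, limma-voom adjusted p 0.805). Without WT replicate 2 the difference was 0.05, so its sign rested on that library. Without VH81X in the denominator VH12 took 0.689% ± 0.147 (SD, n = 4) in VH81X-CBEscr/scr and 0.958% ± 0.399 (SD, n = 3) in WT, a log2 difference of -0.37 (SE 0.221, 95% interval -0.80 to 0.07, limma-voom adjusted p 0.431). The exact permutation p (two-sided) was 0.514 for all V junctions and 0.371 without VH81X.

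**Figure D1:**
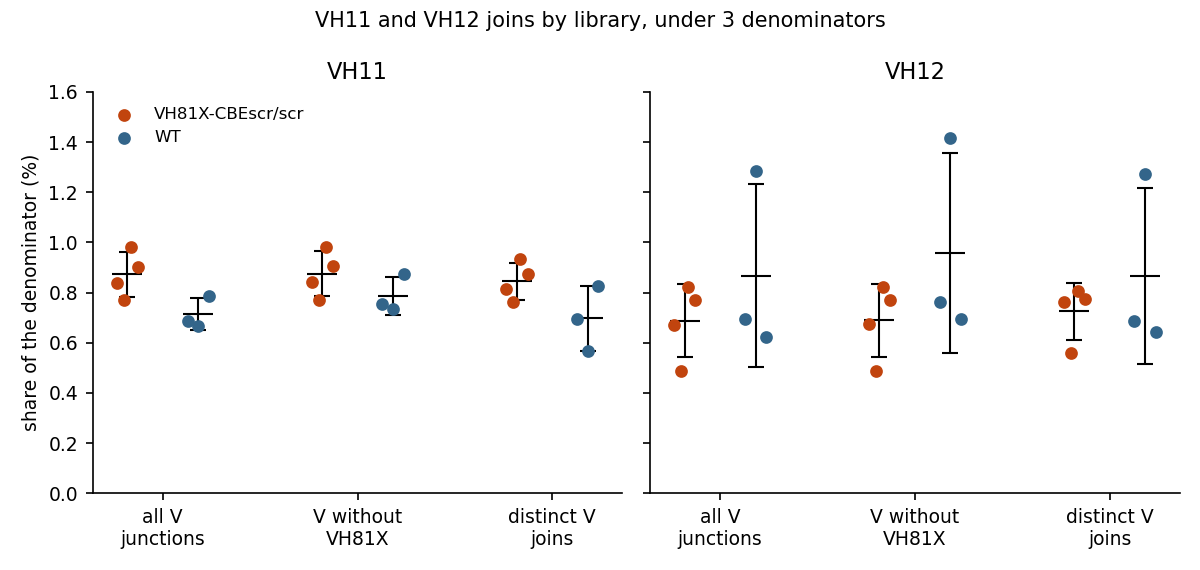
Share (%) of VH11 (left) and VH12 (right) in each library, of all V junctions, of V junctions without VH81X and of distinct V joins. Points are libraries of VH81X-CBEscr/scr (left of each pair) and WT (right), the long tick is the mean and bars are 1 SD. VH12 in WT replicate 2 stands above the other libraries at 1.29% of all V junctions.

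The high VH12 value of WT replicate 2 was not carried by a single repeated join. Its 141 junctions came from 47 distinct joins, the largest with 13 lines, and these were 1.27% of the distinct V joins of that library, against 0.559% to 0.807% in the VH81X-CBEscr/scr libraries and 0.687% and 0.641% in the other WT libraries. Among lines not marked duplicate it stood less far apart, at 1.15%, against 0.686% to 1.03% in the VH81X-CBEscr/scr libraries and 0.851% and 0.832% in the other WT libraries. It was also the library with the most VH12 lines in the other orientation, 13 lines from 2 distinct joins, against 1 line in WT replicate 3 and 0 in the other libraries. At VH11 such lines numbered 2 in VH81X-CBEscr/scr replicate 4 and 2 in WT replicate 3.

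Of the members, 0 of 2 were called (limma-voom, adjusted p under 0.05), 0 of 2 had an unadjusted p under 0.05 and 0 of 2 passed the exact permutation test. Over all 129 V segments tested, 6 (4.65%) were called with all V junctions as library size and 3 (2.33%) with VH81X left out. The unadjusted limma-voom p was under 0.05 in 17 and 15 of them, respectively. The exact permutation test of the share was run on the 2 members only, so it has no such background. With so few called among all segments, 0 of 2 says little about the members. The median log2 difference of all tested segments was -0.04 with all V junctions and -0.18 with VH81X left out. The near copy of VH11 took 0.446% ± 0.103 (SD, n = 4) in VH81X-CBEscr/scr and 0.461% ± 0.119 (SD, n = 3) in WT (log2 difference -0.01, SE 0.276, limma-voom adjusted p 0.999). A share counts reads, so fewer cells with such a join and fewer reads per cell cannot be told apart in these bulk libraries. Whether each library is a mouse of its own is not stated in the labels, and the p-values cover no more than the scatter of these libraries. The limma-voom fit shares variance over all tested segments. Its SE was 0.221 for VH11 and 0.223 for VH12, although the SD in WT was 0.0638 for VH11 and 0.364 for VH12. The limma-voom SE, interval and p of VH12 therefore do not measure its own scatter, which the exact permutation test uses.

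By mean share over the 7 libraries, VH11 ranked 38 and VH12 ranked 42 of 158 V segments, where the median segment took 0.312% and the most used, V_114846142, took 9.02%. VH11 averaged 0.805% (range 0.666% to 0.982%). The segment next above it, V_116416805, averaged 0.861% (range 0.574% to 1.08%), and the segment next below, V_115055837, averaged 0.801% (range 0.652% to 1.23%). VH12 averaged 0.765% (range 0.488% to 1.29%), between V_116081018 at 0.780% (range 0.637% to 0.972%) and V_116619541 at 0.725% (range 0.606% to 1.08%). These neighbours in the order did not differ beyond their spread over libraries.

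**Figure D2:**
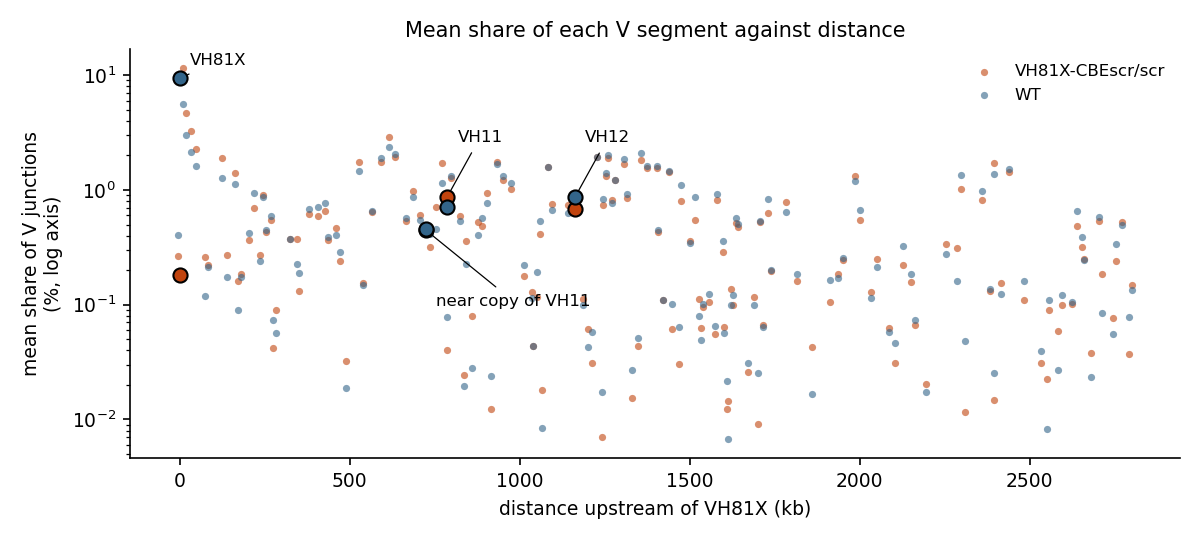
Mean share of V junctions (%, log axis) of each V segment against its distance upstream of VH81X (kb), in VH81X-CBEscr/scr and WT. Outlined points are VH11, VH12, the near copy of VH11 and VH81X. VH11 and VH12 sit above the median segment (0.312%) in both genotypes, and VH81X is the segment whose groups lie furthest apart.

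Among the V segments nearest to VH11 on the chromosome, V_115608445, 14.8 kb closer to VH81X, was 1 of the 6 called. It had 1.65%, 1.61%, 1.62% and 2.02% of V junctions in VH81X-CBEscr/scr and 1.61%, 0.757% and 1.07% in WT (log2 difference 0.61, SE 0.188, limma-voom adjusted p 0.0278). All mutant libraries lay above every WT library, by a margin under the rounding for WT replicate 1. The call held with median-ratio size factors, without the filter, with the 50 bp window and without VH81X-CBEscr/scr replicate 1 or 2 or WT replicate 1. It was lost under the other alternatives, among them VH81X excluded from the library size (log2 difference 0.47, limma-voom adjusted p 0.146), distinct joins (0.25, adjusted p 0.614), and leaving out VH81X-CBEscr/scr replicate 3 (0.64, adjusted p 0.118), VH81X-CBEscr/scr replicate 4 (0.51, adjusted p 0.261), WT replicate 2 (0.38, adjusted p 0.310) or WT replicate 3 (0.55, adjusted p 0.123). The segments on the other side of VH11, V_115635402 (12.2 kb away) and V_115659508 (36.3 kb away), had log2 differences of -0.05 (SE 0.190) and 0.21 (SE 0.248), and both had limma-voom adjusted p above 0.9. V_115622575, a cluster of 51 junctions 0.653 kb from VH11, had no recognisable Cys codon. Near VH12, V_115930750, V_115977395, V_116022323 and V_116065104 had log2 differences of 0.19, 0.20, 0.02 and 0.00, with limma-voom adjusted p from 0.906 to 0.999. Whether VH11 or VH12 differed from these neighbours in its response was not tested.

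VH11 and VH12 did not follow each other across libraries, with Pearson's r of -0.18 between their log2 shares of V junctions without VH81X over 7 libraries. Of 71 segments with at least 50 junctions per library on average, those most like VH11 were V_115714798 (r 0.77, Spearman's rho 0.86), V_115543647 (r 0.76, rho 0.79) and V_114998634 (r 0.58, rho 0.64). Those most like VH12 were V_116352205 (r 0.89, rho 0.43), V_116240676 (r 0.88, rho 0.57) and V_116193011 (r 0.88, rho 0.54). Without the pair of libraries farthest from the VH12 median (WT replicate 2 and VH81X-CBEscr/scr replicate 2), these 3 values were -0.75, -0.37 and -0.28, so the likeness to VH12 rests on those libraries. For VH11 the values without WT replicate 2 and VH81X-CBEscr/scr replicate 3 were 0.28, 0.53 and 0.78. All shares of a library have the same denominator, and these correlations are given as descriptions only.

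The joins of VH11 and VH12 were split almost evenly over the 3 reading frames, while those of most V segments were mostly in frame. A join is in frame when the number of bases between the V Cys codon and the JH4 Trp codon is a multiple of 3. Over the 7 libraries, 135 of 405 distinct VH11 joins of known frame were in frame (33.3%, 95% Wilson interval 28.9% to 38.1%), 118 had 1 base over and 152 had 2 bases over. For VH12, 112 of 390 were in frame (28.7%, interval 24.5% to 33.4%), 130 had 1 base over and 148 had 2 bases over. Over all other V segments 28390 of 49960 were in frame (56.8%), with 21.6% and 21.5% in the other frames. Here and below, the other V segments include VH81X and the near copy of VH11. VH81X made up a mean of 0.187% of distinct V joins in VH81X-CBEscr/scr and 8.17% in WT, so the make-up of this group differed between genotypes. No distinct VH11 or VH12 join was found in more than 1 library (0 of 420 and 0 of 395), so no identical join was counted in more than 1 library. Carry-over with a changed base or from outside these libraries was not tested.

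The low in-frame share was seen in every library. For VH11 it was 28.9%, 38.1%, 33.3% and 25.4% in VH81X-CBEscr/scr and 41.0%, 33.3% and 32.9% in WT. For VH12 it was 26.7%, 35.5%, 34.9% and 22.2% in VH81X-CBEscr/scr and 29.1%, 14.9% and 37.1% in WT. The other V segments had 51.5%, 56.7%, 57.2% and 59.9% in VH81X-CBEscr/scr and 58.7%, 55.6% and 55.4% in WT, with no overlap with either segment. Against the other V segments of the same library, the VH11 share differed by a mean of -23.15 percentage points and the VH12 share by -27.8, each lower in 7 of 7 libraries. The two-sided exact sign-flip permutation p over libraries was 0.0156 for each, the smallest that 7 libraries allow, and 0.0938 after Benjamini-Hochberg adjustment over the 24 tests of join structure, so neither passed after adjustment.

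The genotypes did not differ in this share past the test. VH11 averaged 31.4% in VH81X-CBEscr/scr and 35.8% in WT (two-sided exact permutation p 0.4, adjusted 0.533), and VH12 averaged 29.8% in VH81X-CBEscr/scr and 27.0% in WT (two-sided exact permutation p 0.743, adjusted 0.891). Without WT replicate 2 the VH12 difference was -3.28 percentage points, against 2.79 with it. Each library gave 21 to 79 joins of known frame per segment, and the spread of these shares was not compared with counting error.

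**Figure D3:**
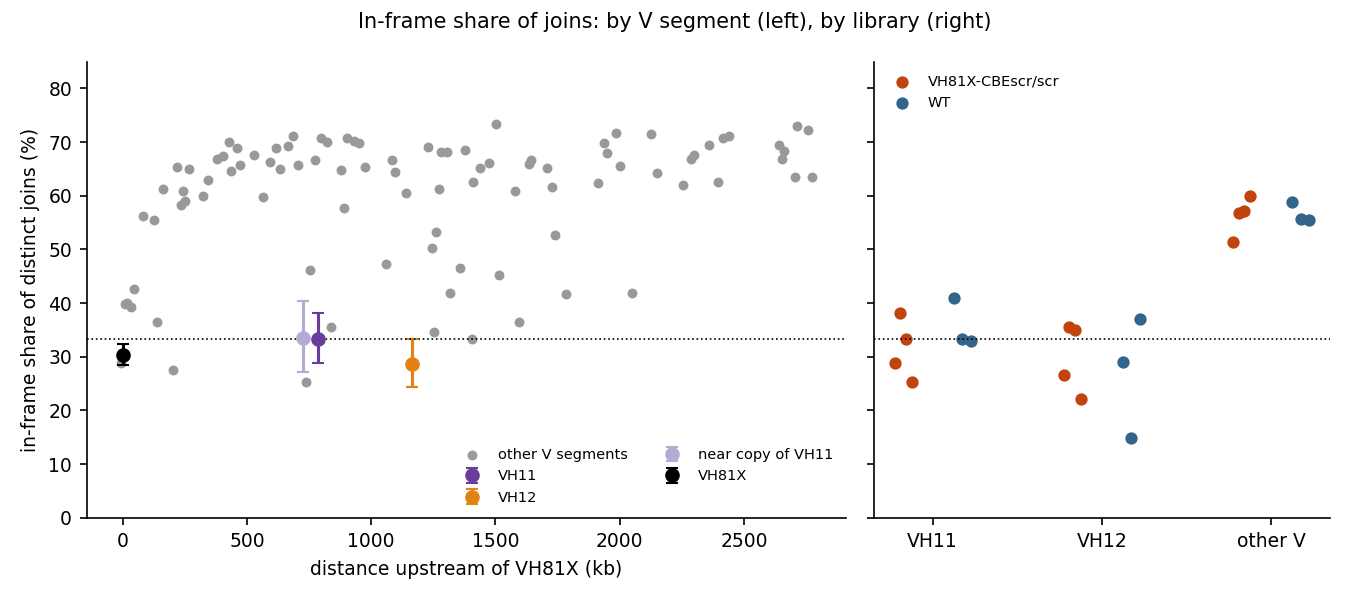
In-frame share (%) of distinct joins. Left, each of 97 V segments with at least 100 joins against its distance upstream of VH81X (kb), all libraries together, with 95% Wilson intervals for the coloured segments; right, each library for VH11, VH12 and the other V segments, with VH81X-CBEscr/scr left of WT. The dotted line marks an even split over 3 frames; VH11 (33.3%) and VH12 (28.7%) lie near it and below most other segments.

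Of 97 V segments with at least 100 joins of known frame, VH12 had the third lowest and VH11 the sixth lowest in-frame share, against a median segment of 64.7%. The near copy of VH11 had 33.5% and VH81X 30.4%. In 7 of the 97 segments the in-frame class was not the most common of the 3: VH11, VH12, the near copy, VH81X, V_114830805 (28.8%), V_115039214 (27.5%) and V_115572761 (25.3%). The last 3 had 1 stop codon each inside the V exon, so that no join of theirs can encode a full heavy chain. VH11, VH12, the near copy and VH81X had 0 stop codons in the exon stretch read. Stop codons were counted in these 7 segments only. Other segments lay close above, such as V_116240676 with 33.4% (95% Wilson interval 30% to 37%) and V_116090723 with 34.6%. The flanking segments V_115608445, V_115635402 and V_115659508 of VH11 had 66.7%, 70.8% and 70.0%, and V_115930750, V_115977395 and V_116065104 near VH12 had 64.3%, 60.5% and 69.0%.

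The segments with the CACAATG heptamer, a grouping made after the values were seen, had in-frame shares of 28.7% (VH12), 30.4% (VH81X), 33.3% (VH11), 33.5% (the near copy), 39.2% (V_114869105), 40.1% (V_114855361), 42.7% (V_114883413) and 55.5% (V_114961492). The 44 segments with CACAGTG had a median of 63.9% and a range of 25.3% to 72.2%, so the classes overlapped. The heptamer is cut away before joining and does not enter the frame, and its part in this pattern was not tested.

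Stop codons were also frequent within the in-frame joins. Of the in-frame VH11 joins 51 of 135 (37.8%, 95% Wilson interval 30% to 46.2%) had a stop codon between the Cys and Trp codons, as did 34 of 112 VH12 joins (30.4%, interval 22.6% to 39.4%), against 3589 of 28390 (12.6%) for the other V segments. By library this share was 23.1% to 50% in VH81X-CBEscr/scr and 19.2% to 53.1% in WT for VH11, and 25% to 50% in VH81X-CBEscr/scr and 14.3% to 30.4% in WT for VH12, with 11% to 14.7% in VH81X-CBEscr/scr and 11.7% to 14.7% in WT for the other V segments. Only VH12 in WT replicate 2 lay within the range of the other V segments, at 14.3%. High shares were not particular to the members. Over all libraries together the near copy of VH11 had 41.5%, VH81X 32.1%, V_115039214 36.9%, V_116240676 36.2% and V_116090723 32.3%. The flanking segments V_115608445 and V_115635402 of VH11 had 9.62% and 8.19%. In-frame joins free of stop codons made up 20.7% of VH11 joins and 20% of VH12 joins of known frame, against 49.6% for the other V segments. This share was not among the measures tested.

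The median deletion from the V ends was higher than that of the other segments in every library, but the difference did not pass the test after adjustment. A median of 1.0 base was deleted from the VH11 coding end in each of the 7 libraries. At VH12 the median was 2.0, 2.0, 1.0 and 2.0 bases in VH81X-CBEscr/scr and 1.0 base in each WT library. The median of the other V segments whose coding end could be read from the RSS side was 0 in each library. The difference was 1.0 base for VH11 and 1.43 bases for VH12 on average, higher in 7 of 7 libraries (two-sided exact sign-flip permutation p 0.0156 each, adjusted 0.0938). This is the smallest p that 7 libraries allow, and it passes the adjustment only if many of the tests reach it together. The adjusted test therefore could not decide whether the deletion differed. The mean deletion was 1.89 bases for VH11 and 1.96 for VH12, against 1.47 for the other V segments, higher in 6 of 7 libraries for each and lower in WT replicate 2 (two-sided exact sign-flip permutation p 0.0312 each, adjusted 0.125). Full coding ends were kept in 156 of 420 VH11 joins (37.1%) and 142 of 395 VH12 joins (35.9%), against 18188 of 35489 joins (51.2%) of the other segments. The near copy of VH11 kept them in 65 of 208 joins (31.25%), with a mean deletion of 2.24 bases over the 7 libraries. More deletion than in the pooled rest was therefore not particular to the members. A 3-base deletion was found in 69 VH11 joins (16.4%) and 67 VH12 joins (17%), and a 1-base deletion in 97 (23.1%) and 59 (14.9%).

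**Figure D4:**
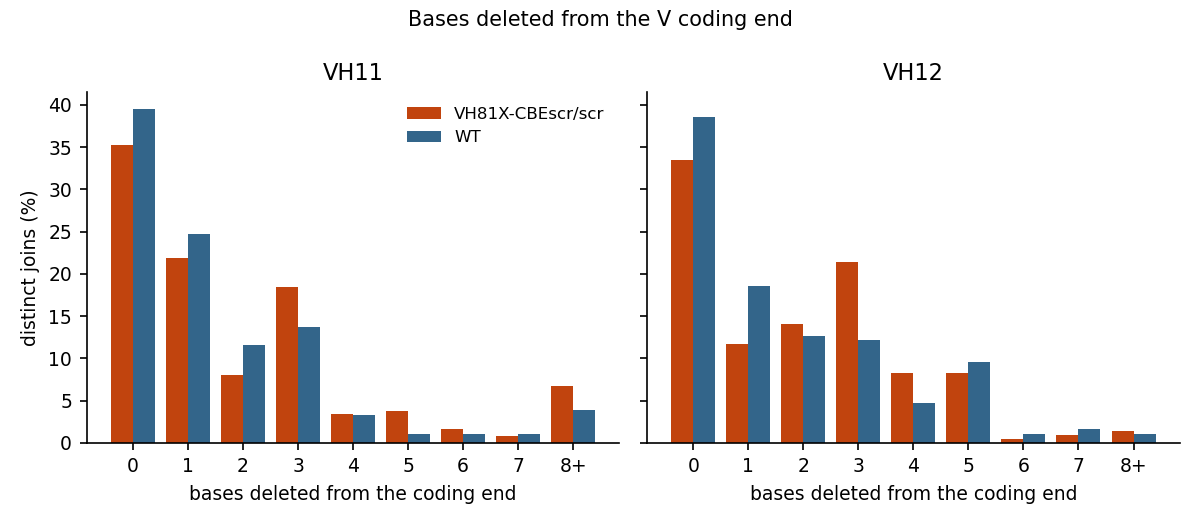
Distinct joins (%) by the number of bases deleted from the VH11 (left) and VH12 (right) coding end, in VH81X-CBEscr/scr (left bar) and WT (right bar). Full ends (0 bases) are the most common class in both, and 3-base deletions made up 18.5% and 21.4% of VH11 and VH12 joins in VH81X-CBEscr/scr and 13.7% and 12.2% in WT.

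Between genotypes the median deletion of VH11 was the same, at 1.0 base, and that of VH12 differed by 0.75 bases (two-sided exact permutation p 0.143, adjusted 0.312). The mean deletion was 2.11 bases in VH81X-CBEscr/scr and 1.59 in WT for VH11 (p 0.0857 by the same exact test, adjusted 0.206) and 2.16 in VH81X-CBEscr/scr and 1.70 in WT for VH12 (exact permutation p 0.371, adjusted 0.529). Added bases that happen to match the germline end count as V here, so deletions are understated, and whether equally for each segment was not tested.

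The bases between V and JH4, made of the D segment and added nucleotides, did not set VH11 or VH12 apart past the test. Their mean number was 16.4 ± 1.01 (SD, n = 7) for VH11 and 17.5 ± 1.19 (SD, n = 7) for VH12, against 17.1 ± 0.0763 (SD, n = 7) for the other V segments (two-sided exact sign-flip permutation p 0.0781 and 0.375, adjusted 0.206 and 0.529). The files list no insert over 30 bases, for any segment. VH11 inserts averaged 16.9 bases in VH81X-CBEscr/scr and 15.6 in WT (two-sided exact permutation p 0.0857, adjusted 0.206). The D segment could be named by an exact match of at least 8 bases in 199 VH11 and 214 VH12 joins. Inserts that matched more than 1 D segment equally well were left unnamed, in 87 VH11, 81 VH12 and 9898 other joins. D_114700407 and D_114710077 were named in 0 joins of VH11, VH12 or the other V segments. The shares below are of named joins only, and whether D segments were equally easy to name was not tested. DFL16.1, the most upstream and most used D segment, made up 63 (31.7%) of the VH11 and 68 (31.8%) of the VH12 assignments, against 29.6% for the other V segments. DQ52, the D segment nearest to JH, made up 4 (2.01%) and 3 (1.40%), against 3.24%. For VH12 the DQ52 share was lower in 6 of 7 libraries (exact sign-flip permutation p 0.0469, two-sided, adjusted 0.161).

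Repeated reads did not set the segments apart either. VH11 had 2.03 lines per distinct join on average and VH12 1.86, against 1.93 for the other V segments (two-sided exact sign-flip permutation p 0.203 and 0.281, adjusted 0.375 and 0.482). The value was highest in WT replicate 2, with 3.48 for VH11, 3.0 for VH12 and 2.97 for the other V segments. None of the 24 tests of join structure passed an adjusted p of 0.05, and 7 had an unadjusted p under 0.05 (exact permutation tests). With this number of libraries even the smallest possible p passes the adjustment only if many tests reach it together, so the lack of a pass says little.

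The CDR3 of a VH12 B-1 cell is known to be restricted in length, most often to 10 codons with a glycine at the fourth, and to use JH1, whereas every join here uses JH4. CDR3 length is counted from the third codon after Cys to the codon before Trp. In-frame VH12 joins had a median of 12 codons (quartiles 10 and 14), in-frame VH11 joins a median of 10 (quartiles 9 and 12) and the other V segments a median of 11 (quartiles 9 and 12). The median was 12 in VH81X-CBEscr/scr and 13 in WT for VH12, and 10 in VH81X-CBEscr/scr and 11 in WT for VH11. Of 112 in-frame VH12 joins 14 had 10 codons, and 3 of these had a glycine codon at the fourth, which is 2.68% (95% Wilson interval 0.915% to 7.58%). The same pattern was found in 1 of 135 VH11 joins (0.741%, interval 0.131% to 4.08%) and in 528 of 28390 joins of the other V segments (1.86%), which lies inside both intervals.

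These joins are shown because they carry the CDR3 length and glycine codon given above for VH12 B-1 cells. The VH11 join is listed only because it matches that VH12 pattern. Whether any of these joins encodes a chain that binds phosphatidylcholine was not tested. Each runs from the Cys codon to the Trp codon, and capitals mark the bases between the V and JH4 ends. The VH12 joins came from VH81X-CBEscr/scr replicates 3, 4 and 4, with 3, 2 and 1 lines, and the VH11 join from VH81X-CBEscr/scr replicate 3, with 2 lines. None had a stop codon. In WT the pattern was found in 0 of 53 in-frame VH12 joins, which allows a share of up to 5.66%, so the absence in WT is not a difference at this depth.
VH12 join, 3 lines: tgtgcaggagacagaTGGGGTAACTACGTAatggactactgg
VH12 join, 2 lines: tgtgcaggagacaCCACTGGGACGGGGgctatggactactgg
VH12 join, 1 line: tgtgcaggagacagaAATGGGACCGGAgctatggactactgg
VH11 join, 2 lines: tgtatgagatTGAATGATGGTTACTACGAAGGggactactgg

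Some of the most repeated in-frame joins without a stop codon, which had other lengths, are shown to set beside the joins above. They are not all of the most repeated joins, and those shown all came from VH81X-CBEscr/scr. For VH12 a join of 13 codons had 8 lines in VH81X-CBEscr/scr replicate 1. For VH11 joins of 13 and 11 codons each had 6 lines in VH81X-CBEscr/scr replicate 1.
VH12 join, 13 codons: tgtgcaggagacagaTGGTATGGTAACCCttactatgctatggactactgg
VH11 join, 13 codons: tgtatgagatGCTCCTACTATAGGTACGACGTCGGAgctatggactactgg
VH11 join, 11 codons: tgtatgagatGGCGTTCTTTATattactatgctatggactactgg

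**Figure D5:**
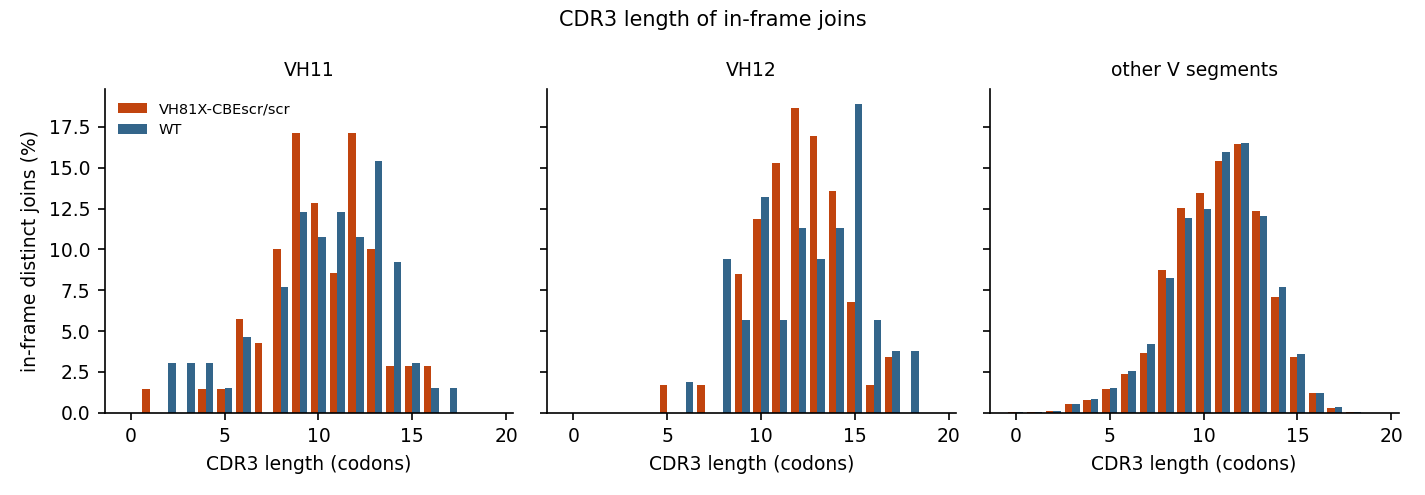
In-frame distinct joins (%) by CDR3 length in codons, for VH11, VH12 and the other V segments, in VH81X-CBEscr/scr (left bar) and WT (right bar). 1 VH11 join of VH81X-CBEscr/scr with no codon between Cys and Trp lies off the axis, and the members rest on 135 and 112 joins, so single bars are uneven.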

How the data were processed

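HTGTS junctions of the JH4 bait were listed by the authors, 1 read per line with position, strand, alignment and sequence. The deposited files carry no count column, and every count here is a number of lines. Bowtie2 and mm9 are named in the submitters' processing notes, and the aligner's version and the filters are not given in the sources used here. Lines marked as duplicates were kept in the deposited files.

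V junctions were deletional lines at 114830800 to 117838107 on chromosome 12, and VH81X those at 114836268 to 114836504. Junctions no more than 300 bp apart formed a V segment if there were 10 or more. Members, lists and tests were chosen with earlier results of these data known. The named segments were the members, VH81X, and for each member the 2 nearest segments on each side, the next in mean share, those most alike over libraries and those at least 75% identical to it. Genotypes were compared with limma-voom (limma 3.58.1, R 4.3.3) over segments whose mean was 10 junctions or more in either genotype, and with exact permutation tests over 35 splits. The Benjamini-Hochberg method adjusted p-values (threshold 0.05), and limma-voom was tested on simulated counts.

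Join structure used distinct joins (99.8% of V lines ended in JH4). The Cys codon was found in the consensus of 145 segments, and the coding end was read from lines in the other orientation in 61 segments. Bases that the files fill into alignment gaps were skipped. Each segment was set against all other V segments of the same library by a sign-flip permutation over the 128 sign patterns. Intervals are 95% Wilson intervals. The files list no molecular identifiers, and intervals and floors therefore cover only counting error. Alternatives changed the library size, the lines counted, the filter, the test, the window, a block for the replicate number, and left out each library in turn. Tables and figures used Python 3.11.15, pandas 2.3.3, SciPy 1.17.1 and matplotlib 3.10.9. A genome sequence of mm9 was not used here. Not all of the most repeated joins are reported here.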

Additional observations from a re-analysis of the deposited data

Results flagged for a closer look

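The median number of bases deleted from the VH12 coding end was 2.0 in VH81X-CBEscr/scr replicates 1, 2 and 4 and 1.0 in replicate 3, so replicate 3 stood alone, with a gap to the others of 1.0 times the range of the group. The DQ52 share of VH12 joins with a named D segment was 0 in VH81X-CBEscr/scr replicates 1 to 3 and 5.41% in replicate 4, again a gap of 1.0 times the range, and it rests on the few DQ52 joins of VH12 (2 of the 37 named in that library). The nominal chance rate of this criterion is about 1 in 20 groups. Both measures hold tied values, where a single differing library gives a gap of 1.0 times the range, and the chance rate for such values was not tested.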

How the results depend on the processing

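Of 203 alternative values for 27 results, 190 kept their direction and their side of the threshold. With 1 library left out, the exact permutation tests between genotypes cannot reach 0.05. The sign-flip tests against the other V segments cannot reach it after adjustment. For those values only the direction could change, so the count of 190 does not measure how firm the results are. The log2 difference of VH11 (0.29) stayed between 0.14 and 0.36, with no adjusted p under 0.05. That of VH12 (-0.23) turned to 0.024 in limma-voom among lines not marked duplicate. The difference of mean log2 shares over the same lines stayed negative, at -0.076. With 1 library left out the VH12 difference ranged from -0.40 to 0.052 (-0.48 to 0.038 in the exact permutation test), positive only without WT replicate 2. The labels do not say whether the replicate numbers pair the libraries. Deviations from the group means correlated at -0.28, -0.01 and 0.12 for libraries with the same number (1 to 3). For libraries with different numbers they correlated at -0.26 to 0.32. So few libraries cannot decide whether the numbers pair them. With the replicate block VH11 was at 0.28 and VH12 at -0.33 (limma-voom adjusted p 0.705 and 0.876). The count of V segments called (6) was 3 when the library size excluded VH81X, 2 with V and D junctions as library size, 2 with limma on log2 shares and 2 with the replicate block, and 4 to 9 with 1 library left out. Differences between genotypes that changed sign with 1 library left out were lines per distinct join (VH11 -0.515 to 0.507, VH12 -0.478 to 0.291), the VH12 in-frame share (-3.28 to 7.82 percentage points) and the VH12 insert length (-1.74 to 0.020 bases). The insert length changed sign without WT replicate 3 and the others without WT replicate 2. Among lines not marked duplicate, VH12 lines per distinct join differed by 0.0136 between genotypes and by 0.0107 from the other V segments, both of opposite sign to the values over all lines. The cause of these changes was not tested. The in-frame differences to the other V segments ranged from -24.1 to -21.3 (VH11) and from -29.4 to -25.7 percentage points (VH12) with 1 library left out. Over all lines they were smaller, at -17.7 (VH11) and -25.4 percentage points (VH12). Among lines not marked duplicate the mean in-frame share was 35.8% for VH11 and 29.0% for VH12, against 52.8% for the other V segments. Distinct joins per library (21 to 81 per segment) limit every join measure. Merging distinct joins whose inserts were within 1 mismatch, an alternative chosen after seeing the data, gave 0.23 for VH11 and -0.02 for VH12.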
